A study of Mus musculus with 15 samples.

Results

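Interleukins are secreted proteins by which cells signal to each other, and this group of genes holds those proteins and the chains of their receptors. The members were all genes whose mouse symbol starts with Il followed by a digit, with pseudogenes left out, matched from Ensembl gene IDs by the GENCODE annotation. They were 85 gene IDs with 83 different symbols, of 46603 IDs counted. At least 1 read was counted for 78 of them, and 42 passed the filter on low counts, among 15296 genes tested. One member, Il4i1, carries the name but encodes an amino acid oxidase and no interleukin.

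The cells were mouse embryonic fibroblasts of BALB/c mice, taken from embryos of 10.5 days, with both (WT), 1 (HET) or no (KO) working copy of Actb, the gene of beta-actin, which the labels call wild type, heterozygous and knockout. All groups were grown to confluence in DMEM on Matrigel and moved at day 0 to an osteogenic medium, OsteoMax-XF with dexamethasone and forskolin, so that no untreated cells serve as a control. The 5 groups of 3 libraries were WT at day 4, WT at day 14, KO at day 4, KO at day 14 and HET at day 14. Replicate numbers are given by the labels, but no embryo, culture or batch, so p-values measure only the spread between these libraries, which may be technical. Dexamethasone, a glucocorticoid, is known to lower many cytokine genes, and forskolin raises cAMP. Both were in every group.

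Most interleukins act through receptors of several chains, and a signal needs these chains together. Of the IL-1 family, IL-1, IL-33 and IL-36 each bind a specific chain that recruits the shared chain Il1rap and signals through MyD88 to NF-kB. IL-6 family ligands bind a specific chain that recruits the shared chain gp130 (Il6st) and signals through JAK kinases and STAT3. Decoy receptors and antagonists bind without signalling. In bone, IL-6 and IL-11 are known to act on osteoblasts and osteoclasts, IL-1 is known to raise bone resorption, and stromal cells and fibroblasts are a known source of IL-33.

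Actb followed the labels in every library. It stood at 1193, 1186 and 1164 CPM (read counts scaled by library size) in WT and 129.9, 139 and 135 in KO at day 4, and at 2947, 2974 and 3067 in WT, 1488, 1642 and 1437 in HET and 46.5, 43 and 44.6 in KO at day 14. Library totals ran from 19.88 M to 47.49 M counts. Of 8 osteoblast markers, Runx2, Alpl, Col1a1 and Spp1 had a mean over 1 CPM in all 5 groups, whereas Ibsp, Dmp1, Sp7 and Bglap, markers of maturing bone cells, had at most 25 counts over any group. Ptprc, the general marker of white blood cells (leukocytes), had 0 to 17 counts over a group. Markers of T, B and mast cells summed to at most 0.701 CPM in any library. The highest of each list were Cd3e, with 2 to 14 counts over a group, Cd79a, with 5 to 35, and Kit, with 0 to 13. Cd8a and Mcpt4 had 0 to 1. The 8 macrophage markers summed to 36.9 to 176 CPM, nearly all of it Cd14 and Cd68, with Adgre1 at 0 to 5 counts over a group. Their sum differed by group: 79.3 to 83.9 CPM in WT and 84 to 87.3 in KO libraries of day 4, and 36.9 to 38.7 in WT, 141 to 176 in HET and 119 to 126 in KO libraries of day 14. Cd68 was at 35.8, 39 and 38.9 CPM in KO at day 14 against 2.61 to 7.17 elsewhere. The 4 endothelial markers summed to 11.3 to 14.4 CPM in WT and 0.634 to 0.799 in KO libraries of day 4, and to 3.41 to 4.25 in WT, 1.37 to 2.44 in HET and 2.93 to 4.43 in KO libraries of day 14. Cdh5 stood at 3.98, 3.19 and 2.65 CPM in WT at day 4 and at most 0.277 in any library of another group. Kdr was also highest there, at 10.1, 9.27 and 8.39 CPM against at most 3.4. Pecam1 was not, with 0.126 to 0.274 CPM there and 0.151 to 1.05 in the libraries of the other groups, and Tek had 1 to 7 counts over any group. The part of these markers in the results was not tested. In bulk libraries, a change in the number of cells of a type and a change in RNA per cell cannot be told apart. HET replicate 2 stood apart: chi-square divided by its degrees of freedom was 47.3 and 47.6 against the other HET libraries, and 2.84 between those. The WT libraries of day 14 also differed more from each other (4.89 to 17.8) than those of WT or KO at day 4 or KO at day 14 (2.15 to 2.97). HET results were also computed without HET replicate 2. The HET cells also held 517, 447 and 504 CPM of Col1a2 and 195, 101 and 191 of Xist, against at most 3.11 and 0.211 CPM in any WT or KO library, so the Actb genotype of HET and a different origin of its cells cannot be told apart. The share of mitochondrial transcripts was 0.415% to 0.542% over WT libraries, 0.836% to 1.12% over KO and 0.729% to 0.851% over HET, and their part in the results was not tested.

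The results turn on 4 genes: the IL-33 pair, in which the ligand Il33 and the receptor Il1rl1 changed in opposite directions between days, and Il11 and Il6, the ligands that share gp130. The 250 bases before their start sites are shown from RefSeq on GRCm38.p6, read 5′ to 3′ along the gene. The reference is the C57BL/6J genome, whereas the cells were BALB/c. Il33, Il1rl1 and Il11 are each listed with 2 starts, and counts per gene do not separate them. Both stretches are shown for Il1rl1, which is known to give a membrane receptor and a soluble decoy, and the one upstream along the gene for Il33 and the one downstream for Il11. Capitals mark matches, on either strand, to the 9-letter NF-kB motif GGANTTTCC, the cAMP response element TGACGTCA, the AP-1 motif TGACTCA or the STAT motif TTCNNNGAA. Of 32851 promoters in the table, read over the same length, 1.07%, 1.55%, 4.46% and 7.02% held these motifs.
Il33, chr19:29924863-29925112, plus strand: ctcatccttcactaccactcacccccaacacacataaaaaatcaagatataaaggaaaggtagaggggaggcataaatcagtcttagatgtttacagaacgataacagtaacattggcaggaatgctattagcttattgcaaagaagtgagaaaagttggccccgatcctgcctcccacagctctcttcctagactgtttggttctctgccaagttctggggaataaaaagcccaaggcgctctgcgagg
Il1rl1, upstream start, chr1:40429320-40429569, plus strand: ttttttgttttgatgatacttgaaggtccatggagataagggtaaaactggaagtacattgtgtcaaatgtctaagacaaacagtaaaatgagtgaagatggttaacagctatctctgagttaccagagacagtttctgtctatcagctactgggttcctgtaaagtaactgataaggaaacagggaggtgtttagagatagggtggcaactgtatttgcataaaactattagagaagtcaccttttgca
Il1rl1, downstream start, chr1:40439379-40439628, plus strand: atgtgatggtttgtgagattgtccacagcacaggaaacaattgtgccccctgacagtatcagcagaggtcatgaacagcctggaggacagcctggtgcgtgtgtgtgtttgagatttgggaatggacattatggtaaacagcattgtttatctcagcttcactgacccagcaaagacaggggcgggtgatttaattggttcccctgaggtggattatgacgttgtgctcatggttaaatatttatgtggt
Il11, chr7:4778142-4778391, minus strand: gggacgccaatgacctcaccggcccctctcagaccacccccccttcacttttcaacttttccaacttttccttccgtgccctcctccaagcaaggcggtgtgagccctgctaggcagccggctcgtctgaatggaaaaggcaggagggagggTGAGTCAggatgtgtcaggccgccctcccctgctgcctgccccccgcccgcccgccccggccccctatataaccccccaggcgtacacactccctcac
Il6, chr5:30012864-30013113, plus strand: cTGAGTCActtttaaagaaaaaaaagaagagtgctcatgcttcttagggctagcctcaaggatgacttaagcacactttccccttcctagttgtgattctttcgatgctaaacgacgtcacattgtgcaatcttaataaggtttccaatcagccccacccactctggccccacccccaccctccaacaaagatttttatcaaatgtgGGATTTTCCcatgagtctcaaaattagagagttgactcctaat
Neither Il1rl1 stretch held any of these motifs, nor did the stretch shown for Il33 or that before its other start (chr19:29945540-29945789). Il11 had an AP-1 match starting 98 bases before the start shown and none before its other start (chr7:4782858-4783107), and Il6 had an AP-1 match at 249 and an NF-kB match at 43 bases before its start. A match describes letters only, and binding was not measured.

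Of the 42 tested members, 29 averaged at least 1 CPM in WT and 28 in KO at day 4, and 31 did so in WT, 27 in HET and 26 in KO at day 14. At least 1 group reached that level for 36 members, and at least 1 group reached 100 CPM for 9. Scaled to exon length, the scale on which genes can be set against each other, the leading member differed by group: Il1rl1 in WT at day 4 (154.0 CPM per kb), Il6 in WT at day 14 (50.3), Il13ra1 in KO at day 4 (33.7), Il33 in KO at day 14 (98.0) and Il1r1 in HET (48.5). The plot of all tested members gives every library.

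**Figure D1:**
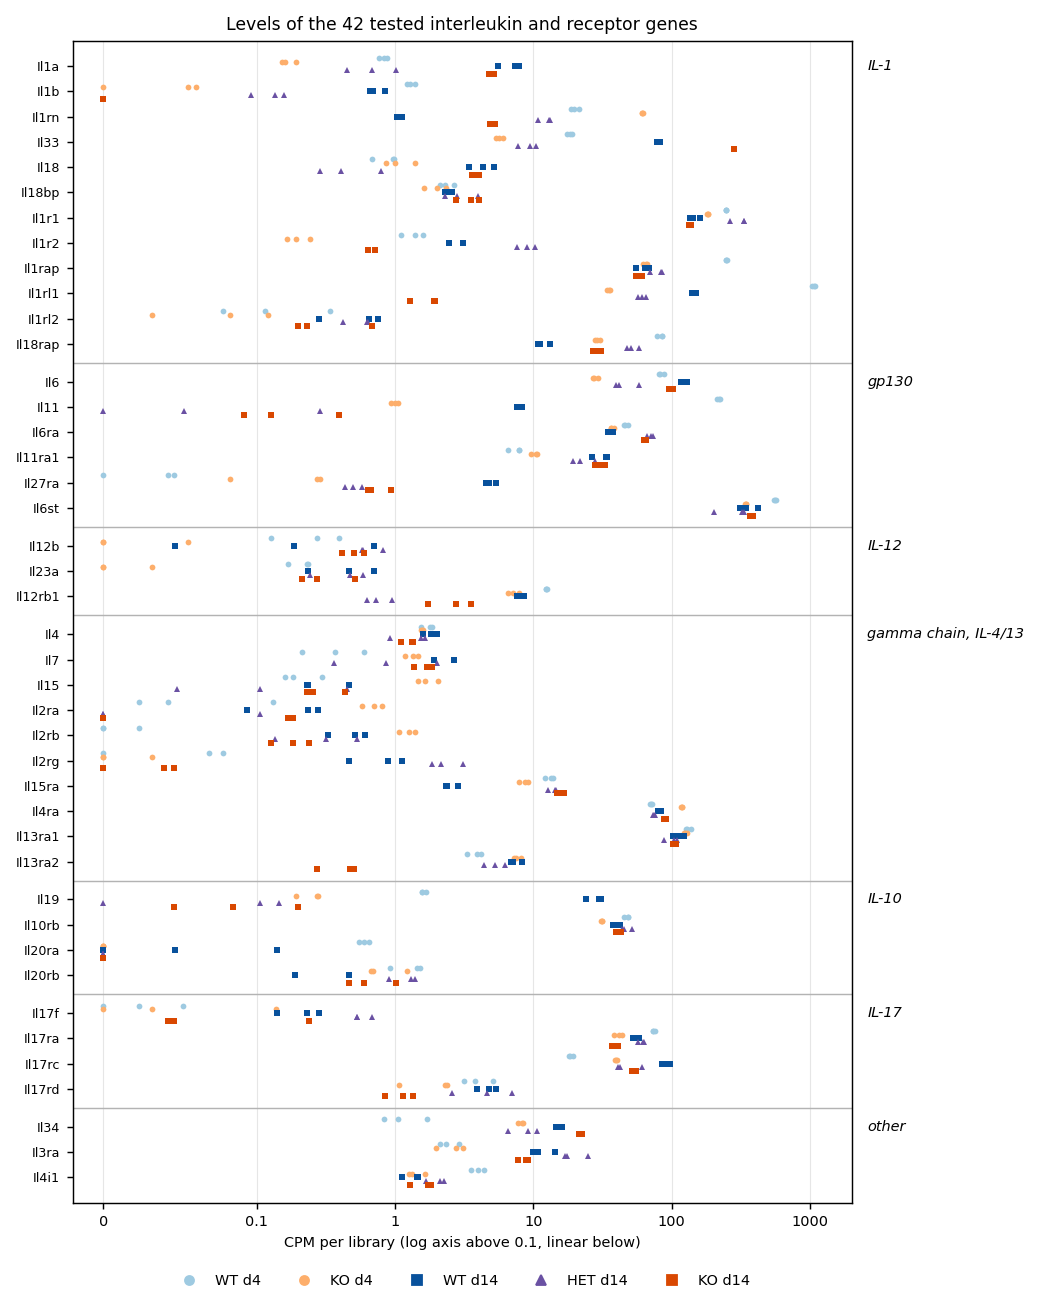
Each point is the CPM of 1 library for 1 of the 42 tested genes (rows, grouped by family), on an axis that is linear below 0.1 and logarithmic above; colours and shapes are the 5 groups. Il1rl1 runs from 1.28 to 1079.7 CPM, whereas Il13ra1 stays between 87.4 and 137 CPM in all 15 libraries.

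Between genotypes, members were called in each direction as follows, by edgeR's quasi-likelihood test at an adjusted p under 0.05. A number that follows a log2 change ± SE in parentheses, or stands there alone after a stated change, is this adjusted p. At day 4, 11 were higher and 22 lower in KO than in WT, which is 78.6% of the 42 against 69.5% of all genes tested. By direction these were 26.2% and 52.4%, against 35.7% and 33.8% of all genes, and the median log2 change was -0.61 against 0.03. At day 14, KO against WT gave 8 higher and 16 lower, 57.1% against 63.1% of all genes, or 19.0% and 38.1% by direction against 30.9% and 32.2%. The median was -0.45 against -0.02. HET against WT gave 12 higher and 17 lower, 69.0% against 58.3%, or 28.6% and 40.5% by direction against 28.3% and 29.9%, with a median of -0.25 against -0.02. KO against HET gave 9 higher and 14 lower, 54.8% against 59.5%, or 21.4% and 33.3% by direction against 29.4% and 30.1%, with a median of -0.12 against -0.01. The 3 comparisons of day 14 share libraries, so their counts are set side by side only. Without HET replicate 2 the counts were 10 and 17 for HET against WT, where Il6st, Il10rb and Il4i1 lost and Il2ra gained a call, and 11 and 14 for KO against HET, where Il17rc and Il7 gained one. A larger share of members than of all genes was called lower in KO at day 4 (52.4% against 33.8%) and in HET against WT (40.5% against 29.9%). In KO at day 14 the shares called lower were near those of all genes, both against WT (38.1% and 32.2%) and against HET (33.3% and 30.1%). The share called higher was below that of all genes in the comparisons of KO, and near it in HET against WT. The members' difference from other genes was not tested, and the medians include low genes whose fitted changes are uncertain. Genes with no count in a group lie on the same side of the genotype medians when set at their bound.

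Between days, 18 members were higher and 17 lower at day 14 than at day 4 in WT, 83.3% against 74.6% of all genes tested, or 42.9% and 40.5% by direction against 39.7% and 34.9%. In KO, 17 were higher and 11 lower, 66.7% against 60.9%, or 40.5% and 26.2% by direction against 30.8% and 30.1%. The medians were 0.2 in WT and 0.17 in KO, against 0.08 and 0 over all genes. The change between days differed between KO and WT, as tested by the interaction of genotype and day, for 31 members, 18 more positive and 13 more negative in KO. That is 73.8% against 64.7% of all genes, or 42.9% and 31.0% by direction against 30.7% and 34.0%, with a median of 0.14 against -0.08.

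The genes of the IL-33 pair changed in opposite directions between days, and further so in KO. IL-33 is a nuclear alarmin that is released from damaged cells, and Il1rl1 (ST2) is its specific receptor chain. Il33 (ENSMUSG00000024810, chromosome 19, 29925114 to 29960718) had 18.9, 17.5 and 18.5 CPM in WT and 5.67, 5.98 and 5.34 in KO at day 4. At day 14 it stood at 80.1, 82.1 and 78.8 CPM in WT, 7.76, 9.41 and 10.4 in HET and 282, 284 and 283 in KO. Thus KO was the lower group at day 4 and the highest at day 14, and all 5 groups were apart. The log2 change of Il33 in KO against WT was -1.69 ± 0.08 at day 4 (edgeR adjusted p = 3.1e-11) and 1.82 ± 0.07 at day 14 (4.54e-12), an interaction of 3.51 ± 0.11 (3.24e-13). From day 4 to day 14 it rose 50.0-fold in KO and 4.39-fold in WT. HET was 8.74-fold below WT (-3.13 ± 0.08 on the log2 scale, edgeR adjusted p = 6.8e-14), and without HET replicate 2 the log2 change was -3.14.

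Il1rl1 (ENSMUSG00000026069, chromosome 1, 40429570 to 40465415) went the other way. It stood at 1079.7, 1064 and 1039 CPM in WT and 35.5, 35.1 and 34.3 in KO at day 4. At day 14 it stood at 150.3, 145 and 139 CPM in WT, 61.3, 56.7 and 65.1 in HET and 1.9, 1.28 and 1.94 in KO. All 5 groups were apart. WT at day 4, where the endothelial markers also summed highest through Cdh5 and Kdr, was the highest and KO at day 14 the lowest. KO was 30.3-fold below WT at day 4 (-4.92 ± 0.07 on the log2 scale, edgeR adjusted p = 1.05e-16) and 84.0-fold below at day 14 (-6.39 ± 0.14, 1.56e-16). At day 14, HET lay between them, 2.37-fold below WT and 35.4-fold above KO. In CPM per kb, the ratio of Il33 to Il1rl1 at day 4 lay between 0.0392 and 0.0424 over the WT libraries and between 0.372 and 0.407 over those of KO. At day 14 it lay between 1.27 and 1.36 for WT, 0.303 and 0.397 for HET, and 349.0 and 529.0 for KO. On this scale the ratio passed from below 1 to above 1 between days in both genotypes. In WT at day 14 it was near 1, and the exon length used joins the membrane and soluble forms of Il1rl1. Which gene was higher in WT at day 14 therefore depends on that length. In KO at day 14, Il1rl1 was nearly missing beside the highest Il33 level of the 5 groups.

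Il1rap, the accessory chain shared by the IL-1, IL-33 and IL-36 receptors, stood at 246, 245 and 252 CPM in WT and 65.2, 62 and 66 in KO at day 4, and at 68.1, 64 and 55.3 in WT, 83.1, 69.4 and 84.8 in HET and 60.7, 55.4 and 57.9 in KO at day 14. WT at day 4 was apart from all others. It was higher than KO at that day by a log2 difference of 1.94 ± 0.08 (edgeR adjusted p = 4.57e-12), whereas at day 14 KO against WT was -0.11 ± 0.08 (0.261).

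The IL-1 agonists, their antagonist and their decoy receptor also differed by group. Il1a, IL-1 alpha, stood at 0.869, 0.831 and 0.758 CPM in WT and 0.151, 0.16 and 0.193 in KO at day 4, and at 5.55, 7.38 and 7.85 in WT, 1.01, 0.683 and 0.451 in HET and 4.95, 5.17 and 4.74 in KO at day 14. It rose between days in both genotypes, and HET at day 14 was 9.7-fold below WT (edgeR adjusted p = 6.47e-09). KO against WT at day 14 was -0.48 ± 0.18 (0.0268), a call lost without WT replicate 2 or 3 or KO replicate 1 or 3 of day 14. Gm14023, on the opposite strand, covers 11.2% of the exon bases of Il1a, and their reads cannot be told apart there. Il1b, IL-1 beta, stood at 1.28, 1.22 and 1.39 CPM in WT and 0.0604, 0 and 0.055 in KO at day 4, and at 0.84, 0.696 and 0.654 in WT and 0.0958, 0.158 and 0.135 in HET at day 14. The KO libraries of day 14 held no count of it, against 47 counts over WT, which makes KO at least 17.2-fold lower with the group set at 3 counts. Such bounds and the count intervals below cover counting error only. The fall of Il1b between days in WT (-0.82 ± 0.32, 0.0325) was lost when any WT library but replicate 1 of day 14 was left out.

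Il1rn, which encodes the IL-1 receptor antagonist, was the only IL-1 ligand gene for which KO exceeded WT, by the test, on both days. It stood at 21.4, 18.8 and 19.7 CPM in WT and 61.9, 61.3 and 60.8 in KO at day 4, and at 1.03, 1.07 and 1.12 in WT, 13.2, 12.9 and 10.7 in HET and 4.86, 4.85 and 5.26 in KO at day 14. The groups did not overlap within a day. KO against WT was 1.62 ± 0.08 at day 4 (edgeR adjusted p = 2.23e-11) and 2.22 ± 0.19 at day 14 (1.59e-09), and HET against WT was 3.51 ± 0.18 (2.9e-12). Il1r1, the signalling IL-1 receptor, stood at 248, 245 and 246 CPM in WT and 183, 181 and 184 in KO at day 4, and at 161, 143 and 135 in WT, 331, 263 and 331 in HET and 137, 133 and 133 in KO at day 14. HET was 2.11-fold above WT (edgeR adjusted p = 1.09e-08), whereas KO and WT overlapped at day 14 (-0.12 ± 0.08, 0.187). The interaction of Il1r1 (0.31 ± 0.11, 0.0222) was lost without WT replicate 3 of day 14 (the highest edgeR adjusted p over the alternatives was 0.0628).

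Il1r2, the decoy receptor for IL-1, stood at 1.58, 1.4 and 1.1 CPM in WT and 0.241, 0.192 and 0.165 in KO at day 4, and at 2.43, 3.11 and 3.08 in WT, 8.91, 10.2 and 7.62 in HET and 0.634, 0.64 and 0.712 in KO at day 14. HET was highest and KO at day 4 lowest, with no overlap among the groups of day 14. KO was 6.83-fold below WT at day 4 and 4.31-fold below at day 14, whereas HET was 3.09-fold above WT (edgeR adjusted p = 6.87e-07). In CPM per kb, Il1r2 stood at 0.0767 to 0.129 of Il1r1 in HET and 0.0154 to 0.0179 in KO at day 14. Il1rl2, the IL-36 receptor, averaged 0.176 ± 0.14 CPM in WT and 0.0784 ± 0.0445 in KO at day 4, and 0.559 ± 0.247 in WT, 0.558 ± 0.119 in HET and 0.368 ± 0.268 in KO at day 14 (± SD, n = 3 libraries). Its rise between days was called in WT (0.0132) and KO (0.0156), and was lost in WT without replicate 1 or 2 of day 4 or 3 of day 14, and in KO without replicate 2 of day 4 or 1 of day 14. The plot of IL-1 family genes shows these levels.

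**Figure D2:**
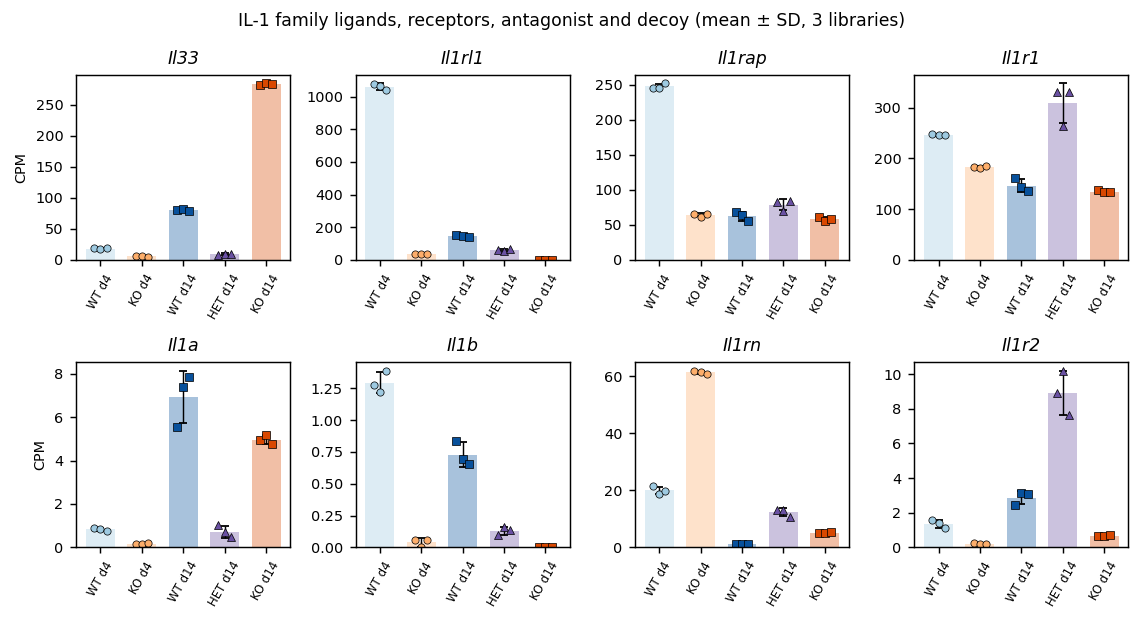
CPM on linear axes from 0 for 8 IL-1 family genes in the 5 groups: bars are means, error bars SD and points the 3 libraries. Il33 is highest and Il1rl1 lowest in KO at day 14 (282 to 284 and 1.28 to 1.94 CPM), and Il1r1 and Il1r2 are highest in HET.

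IL-18 needs Il18r1 and Il18rap, and only the second chain was clearly measured. Il18 stood at 0.983, 0.675 and 0.969 CPM in WT and 0.996, 1.38 and 0.853 in KO at day 4, and at 5.18, 3.43 and 4.35 in WT, 0.287, 0.789 and 0.406 in HET and 3.76, 4.02 and 3.6 in KO at day 14. It was 8.82-fold lower in HET than in WT (edgeR adjusted p = 3.13e-07). Il18rap, the signalling chain, stood at 85.5, 78.7 and 85.6 CPM in WT and 30.4, 28.8 and 28 in KO at day 4, and at 10.8, 13.1 and 11.1 in WT, 50.7, 47.8 and 58.2 in HET and 30.7, 27.1 and 28.3 in KO at day 14. It was thus highest in WT at day 4 and lowest in WT at day 14, while KO libraries overlapped between days. KO against WT was -1.52 ± 0.08 at day 4 and 1.3 ± 0.09 at day 14, opposite directions with an interaction of 2.82 ± 0.12 (edgeR adjusted p = 2.28e-11). Il18r1, the ligand-binding chain, had at most 25 counts over a group and was not tested. Il18bp, a soluble protein that binds IL-18, stood at 2.29, 2.65 and 2.11 CPM in WT and 2.02, 2.33 and 1.62 in KO at day 4, and at 2.57, 2.41 and 2.29 in WT, 2.78, 3.94 and 2.3 in HET and 4.06, 2.74 and 3.52 in KO at day 14. Its interaction (0.76 ± 0.31, 0.0404) was lost on leaving out any of 8 libraries, with edgeR adjusted p up to 0.104.

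Il1r2, Il1r1, Il1rl2, Il1rl1, Il18r1 and Il18rap lie in this order on the plus strand of chromosome 1, from 40074079 to 40551705 of GRCm38, within 478 kb. Neighbours there differed in direction. In KO at day 14, Il1r2 and Il1rl1 were lower than in WT, Il18rap was higher, and Il1r1 and Il1rl2 did not pass the test. In HET, Il1r2, Il1r1 and Il18rap were higher than in WT and Il1rl1 was lower.

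Il11 was far lower in KO and HET than in WT. IL-11 is a stromal cytokine with known effects on bone. Il11 (ENSMUSG00000004371, chromosome 7, 4772373 to 4782859) had 219.7, 222 and 213 CPM in WT and 0.936, 0.991 and 1.05 in KO at day 4. At day 14 it stood at 8.22, 8.21 and 7.66 CPM in WT, 0.287, 0.0526 and 0 in HET and 0.127, 0.0915 and 0.395 in KO. WT libraries were above all others at each day, and HET and KO overlapped near 0. The peak of Il11, in WT at day 4, is also where Cdh5 and Kdr were highest, but not Pecam1, which was highest in HET. The part of these markers was not tested. KO was 219-fold below WT at day 4 (-7.77 ± 0.19 on the log2 scale, edgeR adjusted p = 2.33e-15) and 37.2-fold below at day 14 (-5.22 ± 0.44, 2e-10). HET against WT was -6.1 ± 0.63 (2.25e-10). These values depend on a few counts: the log2 change of Il11 in KO at day 14 was -6.13 without KO replicate 3, and in HET it was -8.12 without replicate 1 and -5.48 without replicate 3. Il11 fell 27.2-fold between days in WT (edgeR adjusted p = 6.17e-14). Its interaction (2.56 ± 0.48, 0.00105) was lost without KO replicate 3 of day 14, with an edgeR adjusted p of 0.0857. Il11ra1, the IL-11 receptor chain, stood at 7.91, 7.87 and 6.57 CPM in WT and 10.4, 9.59 and 10.6 in KO at day 4, and at 26.6, 34.3 and 33.4 in WT, 19.4, 28 and 21.7 in HET and 28, 30 and 32.9 in KO at day 14. The receptor rose between days in WT (2.06 ± 0.13) and KO (1.57 ± 0.13) while the ligand fell. In CPM per kb, the ratio of Il11 to Il11ra1 went from 59.7 to 69.6 in the WT libraries of day 4 to 0.493 to 0.663 in those of day 14. The interaction of Il11ra1 (-0.49 ± 0.19, 0.029) was lost on leaving out any of 7 libraries. Il11ra1 has near-identical copies, listed as 3 IDs named Il11ra2 with at most 2 counts over a group, so how reads were shared among them is uncertain.

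Il6 (ENSMUSG00000025746, chromosome 5, 30013114 to 30019981), which encodes IL-6, stood at 80.5, 82.8 and 88.6 CPM in WT and 26.9, 27.6 and 29.5 in KO at day 4. At day 14 it stood at 117, 128 and 122 CPM in WT, 39.5, 57.9 and 41.7 in HET and 97.4, 102 and 94.8 in KO. KO at day 4 was the lowest group, and HET the lowest at day 14. KO against WT was -1.58 ± 0.1 at day 4 (edgeR adjusted p = 1.78e-09) and -0.31 ± 0.1 at day 14 (0.0143), the second lost without WT replicate 2 or KO replicate 3 of day 14 (highest edgeR adjusted p 0.0537). HET was 2.64-fold below WT (1.63e-08). Il6ra, the IL-6 receptor chain, stood at 48.4, 45.1 and 45.7 CPM in WT and 36.4, 38.4 and 36.6 in KO at day 4, and at 37.8, 35.9 and 34.8 in WT, 73.7, 66.5 and 70.9 in HET and 65.6, 63 and 63 in KO at day 14. It was lower in KO at day 4 (-0.32 ± 0.06) and higher at day 14 (0.82 ± 0.06), and HET was 1.95-fold above WT (edgeR adjusted p = 1.33e-09). KO against HET for Il6ra (-0.14 ± 0.06, 0.0478) was lost on leaving out any of KO replicates 1 to 3 or HET replicates 1 and 3.

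Il6st, gp130 itself, stood at 565, 562 and 553 CPM in WT and 339.6, 344 and 342 in KO at day 4, and at 420.3, 346 and 309.5 in WT, 331, 202 and 320 in HET and 368, 385 and 385 in KO at day 14. Group means of Il6st ran from 284 CPM in HET to 559.8 CPM in WT at day 4. The lower level in HET than in WT (-0.33 ± 0.14, 0.0481) rested on HET replicate 2: without it the log2 change was -0.14 (edgeR adjusted p = 0.143). That call was also lost without WT replicate 1 or 2 of day 14. Il27ra, the IL-27 receptor chain that pairs with gp130, stood at 0.0457, 0 and 0.0421 CPM in WT and 0.272, 0.288 and 0.0825 in KO at day 4, and at 4.57, 4.78 and 5.37 in WT, 0.431, 0.578 and 0.496 in HET and 0.93, 0.64 and 0.672 in KO at day 14. Only the WT libraries of day 14 were above 1 CPM. The count ratio of WT at day 14 to WT at day 4 was 173 (95% counting interval 58.8 to 845), that of KO to WT at day 4 was 7.36 (2.2 to 38.5), and KO was 6.53-fold below WT at day 14 (edgeR adjusted p = 1.21e-06). Il27, its ligand chain, had at most 10 counts over a group.

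Il19, an IL-10 family cytokine (ENSMUSG00000016524, chromosome 1, 130932656 to 130940115), was abundant only in WT at day 14. It stood at 1.67, 1.56 and 1.56 CPM in WT and 0.272, 0.192 and 0.275 in KO at day 4, and at 23.8, 29.8 and 30.7 in WT, 0.144, 0.105 and 0 in HET and 0.0846, 0.0457 and 0.198 in KO at day 14. WT libraries lay above KO at both days. Il19 rose 17.5-fold between days in WT, and at day 14 KO was 239-fold (edgeR adjusted p = 1.62e-12) and HET 329.5-fold (2.64e-12) below WT. On the log2 scale these were -7.9 ± 0.52 and -8.36 ± 0.65, and -8.64 without KO replicate 3, -9.04 without HET replicate 1 and -7.75 without HET replicate 3. The neighbours of Il19 on chromosome 1, Il10, Il20 and Il24, were too low to test. The receptor of IL-19, Il20ra with Il20rb, was low throughout. Il20ra averaged 0.597 ± 0.0508 CPM in WT at day 4 and 0.0623 ± 0.0714 at day 14 (± SD, n = 3) and had no count in KO or HET, which puts KO at least 20.3-fold below WT at day 4. Il20rb stood at 0.915, 1.51 and 1.43 CPM in WT and 0.664, 1.22 and 0.688 in KO at day 4, and at 0.187, 0.464 and 0.187 in WT, 1.39, 1.31 and 0.901 in HET and 0.465, 1.01 and 0.593 in KO at day 14. KO against WT at day 14 (1.27 ± 0.51, 0.0328) was lost without WT replicate 1 or 3 or KO replicate 2 of day 14. Il10rb, the second chain of the IL-10 receptor, stood at 48.1, 48.5 and 44.8 CPM in WT and 31.4, 31.1 and 30.6 in KO at day 4, and at 37.9, 40.5 and 42.4 in WT, 43.9, 51.5 and 44.8 in HET and 42.6, 43 and 39.8 in KO at day 14. HET against WT for Il10rb (0.21 ± 0.07, 0.0161) was lost without HET replicate 2 (log2 change 0.14, edgeR adjusted p = 0.0677) or WT replicate 1. Another gene on the same strand, Gm21970, covers 14.9% of its exon bases.

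Il34 is a cytokine that, like Csf1, acts on the receptor Csf1r of macrophages and osteoclast precursors. It stood at 1.69, 0.831 and 1.05 CPM in WT and 7.73, 8.31 and 8.36 in KO at day 4, and at 14.5, 16.2 and 15.7 in WT, 9.2, 10.6 and 6.49 in HET and 21.2, 21.6 and 22.5 in KO at day 14. KO lay above WT at both days, by log2 changes of 2.73 ± 0.22 (edgeR adjusted p = 6.61e-09) and 0.49 ± 0.15 (0.0113), and HET lay below WT by a log2 change of -0.82 ± 0.17 (0.000528). Csf1r did not exceed 1.16 CPM in any library, so the ligand was measured beside little of its receptor. Csf1, the other ligand, stood at 55.5, 56 and 53.1 CPM in WT and 326, 325 and 331 in KO at day 4, and at 487, 461 and 445 in WT, 409, 361 and 424 in HET and 514, 507 and 528 in KO at day 14. Il3ra, the IL-3 receptor chain, stood at 2.1, 2.91 and 2.32 CPM in WT and 1.96, 3.07 and 2.75 in KO at day 4, and at 10.8, 9.93 and 14.3 in WT, 17.5, 24.9 and 17 in HET and 9.18, 7.77 and 8.89 in KO at day 14. It was highest in HET (1.69-fold above WT, edgeR adjusted p = 0.00168). KO against WT at day 14 (-0.44 ± 0.18, 0.0498) was lost with RLE scaling, with the replicate block and on leaving out WT replicate 1 or 3 or any KO replicate of day 14.

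**Figure D3:**
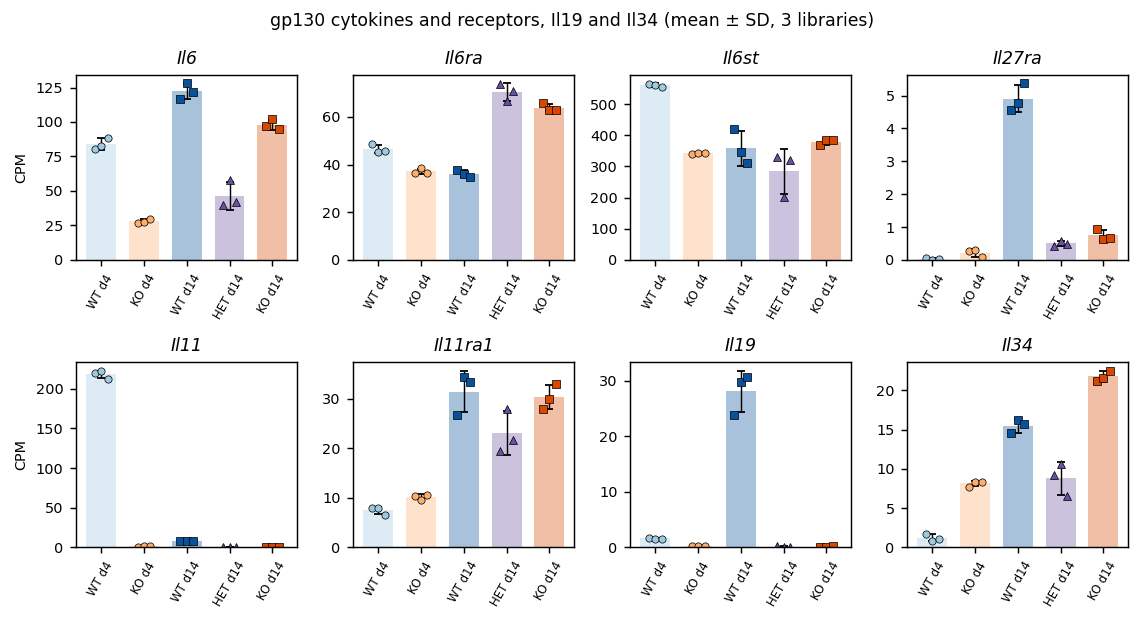
CPM on linear axes from 0 for 6 genes of the gp130 family, Il19 and Il34 in the 5 groups: bars are means, error bars SD and points the 3 libraries. Il11 stands at 213 to 222 CPM in WT at day 4 and at 7.66 to 8.22 in WT at day 14, and Il19 and Il27ra peak in WT at day 14.

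The IL-4 and IL-13 receptor chains were steadily present, apart from the decoy. Il4ra, the chain shared by both cytokines, stood at 71.5, 70.7 and 70 CPM in WT and 119, 118 and 116 in KO at day 4, and at 79.6, 82.5 and 83.7 in WT, 73, 74 and 75.9 in HET and 88.4, 89 and 90.2 in KO at day 14. KO was 1.66-fold above WT at day 4 (edgeR adjusted p = 3.7e-10), whereas the day 14 call (0.12 ± 0.04, 0.0243) was lost without WT replicate 1 or KO replicate 2 or 3. Il13ra1, its partner, stood at 126, 129 and 137 CPM in WT and 124, 122 and 129 in KO at day 4, and at 123, 112 and 102 in WT, 103, 87.4 and 110 in HET and 105, 102 and 107 in KO at day 14. It passed no genotype test, and its fall between days in WT (-0.22 ± 0.08, 0.0176) was lost without WT replicate 3 of day 4 or of day 14. Il13ra2, the decoy receptor for IL-13 (chromosome X, 147383476 to 147429192), stood at 4.14, 3.9 and 3.29 CPM in WT and 7.52, 7.26 and 8.06 in KO at day 4, and at 7.1, 8.21 and 6.87 in WT, 6.27, 5.31 and 4.42 in HET and 0.507, 0.274 and 0.474 in KO at day 14. KO was above WT at day 4 and far below every other group at day 14. The log2 changes were 1 ± 0.14 (edgeR adjusted p = 1.37e-05) and -4.11 ± 0.28 (2.24e-10), with an interaction of -5.11 ± 0.32 (1.34e-10). The smaller difference of HET from WT (-0.47 ± 0.15) was lost without WT replicate 2 or HET replicate 3. Il4 stood at 1.85, 1.53 and 1.77 CPM in WT and 1.57, 1.6 and 1.54 in KO at day 4, and at 1.82, 1.99 and 1.59 in WT, 0.91, 1.63 and 1.53 in HET and 1.35, 1.33 and 1.11 in KO at day 14, and passed no test in any comparison. Il13 was too low to test.

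Apart from Il4ra, given above, which can also pair with the gamma chain Il2rg, most members of the receptors that share Il2rg were low. Il15ra, the chain that presents IL-15, was a further exception. It stood at 13.4, 13.8 and 12.1 CPM in WT and 8.75, 7.83 and 9.13 in KO at day 4, and 2.38, 2.83 and 2.34 in WT, 12.7, 14.5 and 14.4 in HET and 16.7, 16.1 and 14.7 in KO at day 14. WT at day 14 was the low group, with KO 6.28-fold and HET 5.51-fold above it, and KO lay below WT at day 4 (-0.61 ± 0.1, edgeR adjusted p = 3.71e-05). Il15, the ligand, stood at 0.16, 0.182 and 0.295 CPM in WT and 2.05, 1.47 and 1.65 in KO at day 4, and at 0.467, 0.232 and 0.234 in WT, 0.0479, 0.105 and 0.451 in HET and 0.254, 0.229 and 0.435 in KO at day 14. Il2rb, a signalling chain for IL-2 and IL-15, stood at 0.0229, 0 and 0 CPM in WT and 1.06, 1.25 and 1.4 in KO at day 4, and at 0.327, 0.51 and 0.608 in WT, 0.527, 0.315 and 0.135 in HET and 0.127, 0.183 and 0.237 in KO at day 14. For Il15 and Il2rb, KO at day 4 was the high group. Il15 was 8.38-fold above WT there, and the count ratio of Il2rb was 131 (95% counting interval 23.2 to 5234, from 125 counts against 1). KO against WT for Il2rb at day 14 (-1.37 ± 0.53, 0.0282) was lost without WT replicate 2 or 3 or KO replicate 1 or 2. Il2ra, the IL-2 chain known from T cells, averaged 0.692 ± 0.113 CPM in KO and 0.065 ± 0.057 in WT at day 4, and 0.202 ± 0.0964 in WT, 0.035 ± 0.0607 in HET and 0.117 ± 0.102 in KO at day 14 (± SD, n = 3). T cell markers stood at 0.0604 to 0.193 CPM summed in the KO libraries of day 4.

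Il2rg, the gamma chain, stood at 0.0686, 0.0779 and 0 CPM in WT and 0, 0.032 and 0 in KO at day 4, and at 1.12, 0.464 and 0.888 in WT, 2.16, 3.1 and 1.85 in HET and 0, 0.0457 and 0.0395 in KO at day 14. Over the group, HET held 145 counts, WT 53 and KO 2 at day 14, a count ratio of 82.7 for HET to KO (95% counting interval 22.5 to 689) and 29.1 for WT to KO (7.68 to 247). Gm20489, on the same strand, covers 30.5% of its exon bases, so its reads are uncertain. Il7 stood at 0.594, 0.364 and 0.211 CPM in WT and 1.18, 1.34 and 1.46 in KO at day 4, and at 2.66, 1.9 and 2.66 in WT, 0.862, 2 and 0.361 in HET and 1.69, 1.37 and 1.86 in KO at day 14. It was 3.19-fold higher in KO at day 4 (edgeR adjusted p = 0.0032), and its call in HET against WT (-1.19 ± 0.42, 0.0218) was lost without WT replicate 1 or 3 or HET replicate 1 or 3. Without HET replicate 2, HET against WT for Il7 was -1.98 and KO was above HET (log2 change 1.43, edgeR adjusted p = 0.00393, against 0.65 ± 0.43 and 0.206 with all libraries). Il7r, its receptor, had at most 13 counts over a group.

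Of the IL-17 receptor chains, Il17ra and Il17rc, which form the receptor for IL-17A and IL-17F, were abundant. Il17ra stood at 73.4, 76.1 and 73.5 CPM in WT and 41.3, 38.4 and 43.5 in KO at day 4, and at 57.9, 52.3 and 53.9 in WT, 63.5, 61.7 and 56.8 in HET and 38.9, 40.8 and 37.2 in KO at day 14. KO lay below WT at both days, by a log2 change of -0.86 ± 0.06 and -0.49 ± 0.07 (edgeR adjusted p = 6.84e-09 and 9.95e-06). Il17rc stood at 19.4, 18.4 and 18.2 CPM in WT and 38.8, 40.1 and 39.3 in KO at day 4, and at 85.1, 92.4 and 97.9 in WT, 42.2, 60.7 and 40.7 in HET and 51.8, 54.7 and 53.5 in KO at day 14. KO was 2.11-fold above WT at day 4 and 1.72-fold below at day 14 (interaction -1.86 ± 0.16, edgeR adjusted p = 4.67e-08). KO against HET for Il17rc was 0.16 ± 0.11 (0.24) with all libraries and 0.36 without HET replicate 2 (edgeR adjusted p = 3.2e-05). Il17rd, an inhibitor of FGF signalling that also binds Il17ra, stood at 5.12, 3.77 and 3.16 CPM in WT and 1.06, 2.37 and 2.28 in KO at day 4, and at 5.32, 4.78 and 3.88 in WT, 6.99, 2.58 and 4.64 in HET and 0.846, 1.14 and 1.34 in KO at day 14. KO lay below WT on both days (0.00713 and 0.000197, edgeR adjusted p). Il17f averaged at most 0.576 ± 0.0865 CPM, in HET (± SD, n = 3), and 0.0249 ± 0.026 in WT and 0.0565 ± 0.072 in KO at day 4 and 0.217 ± 0.0713 in WT and 0.108 ± 0.112 in KO at day 14, so its receptor was measured almost without this ligand. Il17a, Il17b and Il25 were too low to test.

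The IL-12 and IL-23 pair had 1 abundant chain, Il12rb1, which both receptors share. It stood at 12.3, 12.3 and 12.5 CPM in WT and 7.88, 7.13 and 6.49 in KO at day 4, and at 7.94, 7.61 and 8.6 in WT, 0.623, 0.946 and 0.721 in HET and 2.75, 3.52 and 1.74 in KO at day 14. WT was above KO at both days, and HET lay 10.6-fold below WT and below KO (edgeR adjusted p = 3.66e-09 and 2.03e-05). Il12b, the subunit that both ligands share, averaged 0.263 ± 0.132 CPM in WT and 0.0183 ± 0.0318 in KO at day 4, and 0.311 ± 0.344 in WT, 0.66 ± 0.134 in HET and 0.504 ± 0.0907 in KO at day 14. Il23a averaged 0.21 ± 0.0363 CPM in WT and 0.0107 ± 0.0185 in KO at day 4, and 0.466 ± 0.234 in WT, 0.433 ± 0.177 in HET and 0.333 ± 0.16 in KO at day 14 (± SD, n = 3). Over KO at day 4 these genes held 2 counts and 1 count. Il4i1 stood at 4.39, 3.51 and 3.96 CPM in WT and 1.33, 1.25 and 1.65 in KO at day 4, and at 1.45, 1.44 and 1.12 in WT, 2.11, 2.26 and 1.67 in HET and 1.73, 1.28 and 1.82 in KO at day 14. Tbc1d17, on the opposite strand, covers 83.9% of its exon bases and the kit does not mark strand, so its values are uncertain. Its call in HET against WT (0.0332) was lost without HET replicate 1 or 2 or WT replicate 3.

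Of the 43 members that were not tested, 12 had 10 or more counts over some group, 24 had fewer and 7 had none. Among the first were Il17d (at most 41 counts over a group), Il21 (31), Il17rb (26), Il17c (23), Il16 and Il31ra (20 each), Il1rapl1 (11), Il10 and Il17re (10 each). The untested members include the T cell cytokines Il2, Il3, Il5, Il9, Il13 and Il17a, and chains such as Il10ra, Il12rb2 and Il23r.

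Set out as 21 ligand and receptor pairs, a pair was counted as complete where the ligand and both chains had a group mean of at least 1 CPM. Complete pairs were 6 in WT and 4 in KO at day 4, and 6 in WT, 5 in HET and 5 in KO at day 14. IL-12, IL-23 and IL-27 were each represented by 1 ligand subunit, and the IL-15 pair left out Il15ra. The pairs of IL-33, IL-6, the IL-1 receptor antagonist, and IL-4 with its type II receptor were complete in all 5 groups. Some passed narrowly: at day 14 Il1rl1 averaged 1.71 CPM in KO and Il1rn 1.07 in WT, and Il4 averaged 1.26 to 1.8 over the groups. The IL-11 pair was complete in WT at both days but not in KO or HET, though Il11 in KO at day 4 fell just short, at 0.991 CPM. The IL-1 beta pair was complete in WT at day 4 only, the IL-1 alpha pair in WT and KO at day 14, and the type I receptor of IL-4 in HET only. That type I pair rests on Il2rg, whose reads are uncertain, as given above. The counts of complete pairs include the IL-1 receptor antagonist, which does not signal, and in HET they include IL-4 with both receptors. These are counts of means past a level, with no test.

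At both days, 21 members were called in KO against WT, 13 in the same direction and 8 in opposite directions. The 8 were Il13ra2, Il15ra, Il17rc, Il18rap, Il27ra, Il2rb, Il33 and Il6ra, 19.0% of the 42 against 21.7% of all genes tested. The plot of fitted changes by genotype shows each member.

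**Figure D4:**
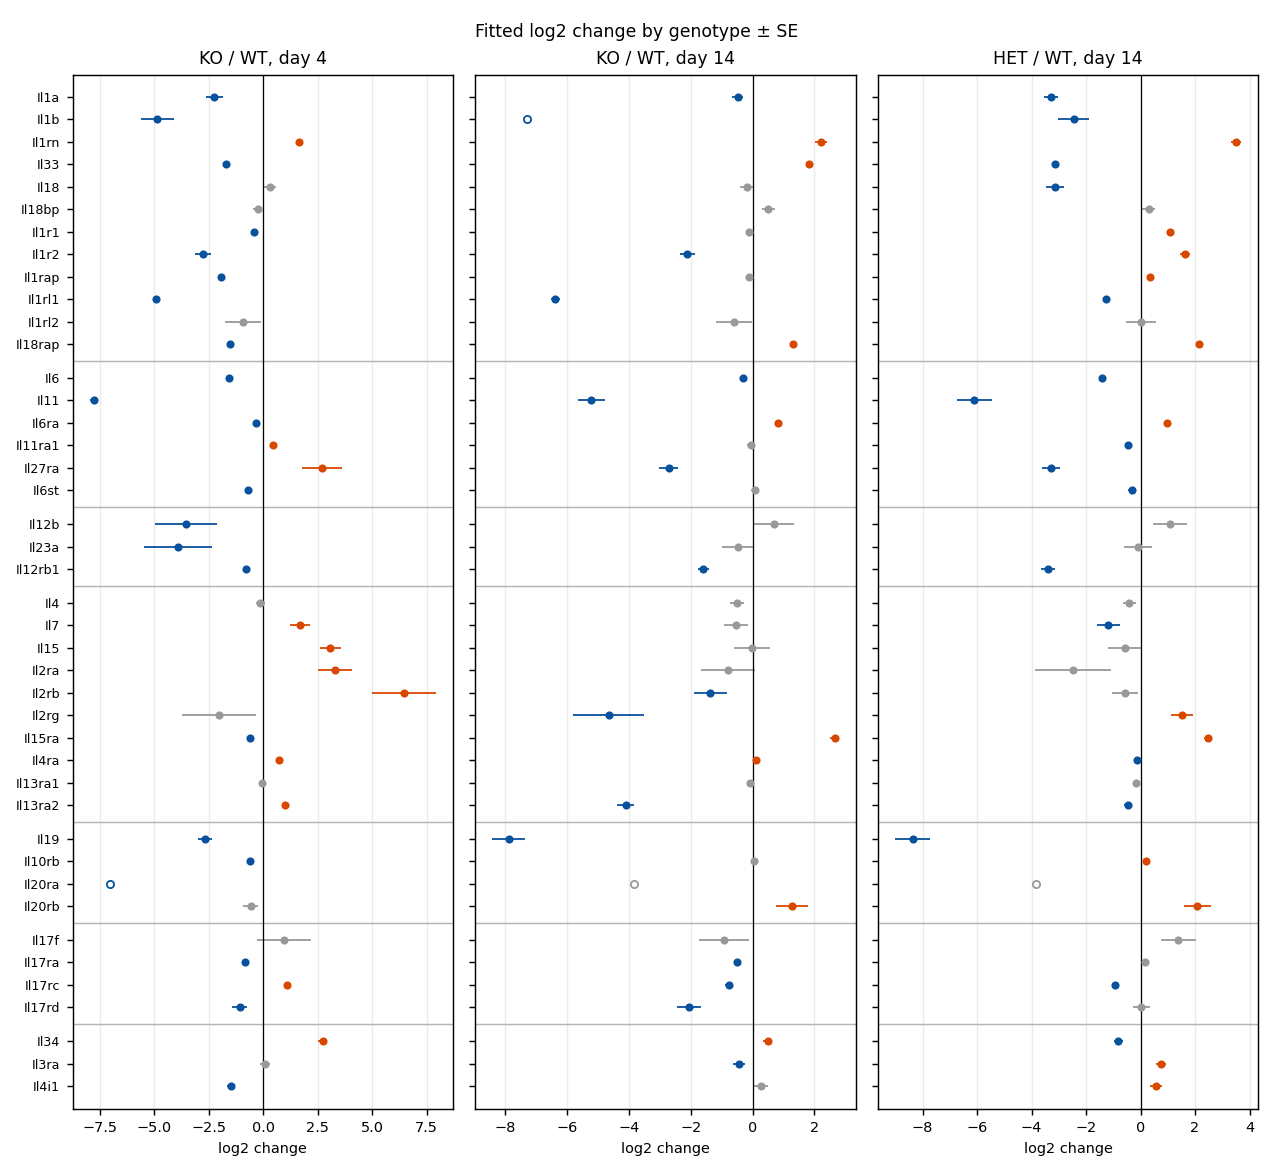
Fitted log2 change ± SE for the 42 tested genes in KO against WT at day 4 and day 14 and HET against WT at day 14; orange points passed as higher, blue as lower and grey did not pass, and open points have a group with no count and no SE. Il33 is blue at day 4 and orange at day 14 in KO, and Il1rl1 and Il11 are blue in all 3 panels.

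At day 14 the mean of HET was below those of WT and KO for 17 members, above both for 15 and between them for 10. It was thus outside for 76.2% of members, against 63.7% of all genes tested. It was called above both for 8 (Il1rap, Il18rap, Il1r1, Il1r2, Il1rn, Il6ra, Il2rg and Il3ra), 19.0% against 15.1% of all genes tested. It was called below both for 9 (Il12rb1, Il6st, Il33, Il6, Il1a, Il4ra, Il34, Il18 and Il11ra1), 21.4% against 15.5%. Without HET replicate 2 the log2 changes against WT were 1.18 for Il1r1, 1.52 for Il1r2, 2.22 for Il18rap, -1.59 for Il6 and -3.14 for Il33, with the same calls, whereas Il6st lost its call against WT and so drops out of the 9. Il11ra1 lost both its calls in the fit of only the groups compared (highest edgeR adjusted p 0.0554 against WT and 0.0695 against KO). Its call between KO and HET was also lost without KO replicate 3 or HET replicate 1. The call of Il6ra between KO and HET was lost on leaving out any of several libraries, as given above. The differences of HET from WT and from KO use the same HET libraries, and Col1a2 and Xist set these libraries apart as well.

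Between days, many members changed by more than they differed between libraries of a group. Among members with over 3 counts in both groups, Il33, Il34, Il19, Il1a, Il3ra, Il17rc, Il11ra1, Il18, Il7 and Il2rg rose by a log2 change of at least 2 in WT, while Il11, Il1rn, Il1rl1, Il18rap, Il15ra, Il20ra and Il20rb fell at least as much. In KO, Il33 and Il1a rose 50.0-fold and 28.6-fold, and Il1rl1, Il13ra2 and Il1rn fell 20.3-fold, 17.8-fold and 12.3-fold. Il15ra fell in WT (-2.38 ± 0.13) and rose in KO (0.88 ± 0.1), with an interaction of 3.26 ± 0.16 (edgeR adjusted p = 4.73e-11). Il13ra2 rose in WT (0.96 ± 0.15) and fell in KO (-4.16 ± 0.28).

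**Figure D5:**
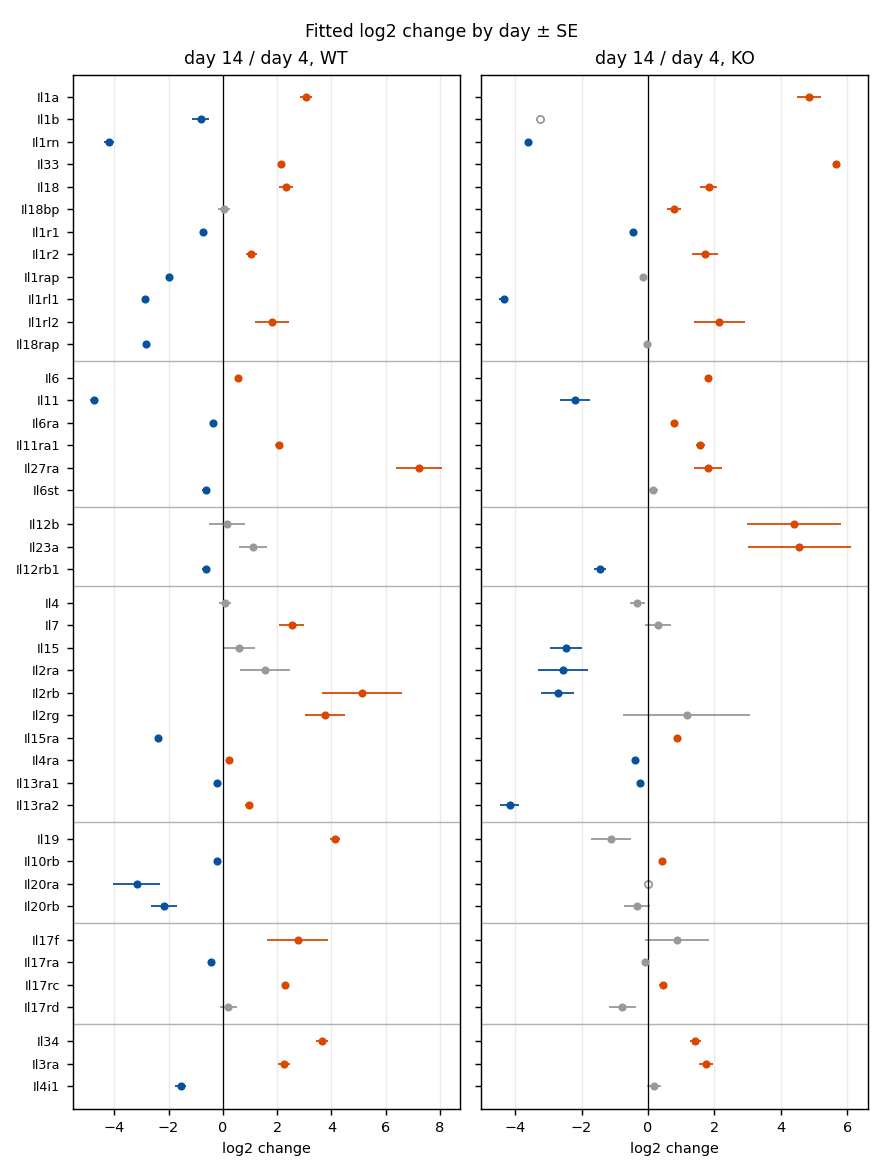
Fitted log2 change ± SE from day 4 to day 14 for the 42 tested genes in WT (left) and KO (right); orange points passed as higher, blue as lower and grey did not pass, and open points have a group with no count and no SE. Il13ra2 is orange in WT and blue in KO, and Il15ra is blue in WT and orange in KO.

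Genes around the interleukins were followed in 7 lists. Their counts are to be read beside the shares of all genes called higher and lower, which were 35.7% and 33.8% in KO against WT at day 4, 30.9% and 32.2% at day 14, and 28.3% and 29.9% in HET against WT. In the list of JAK kinases and STAT factors, 10 genes were tested. In KO against WT, 7 were higher and 1 lower at day 4 (median log2 change 0.64) and again 7 and 1 at day 14 (0.52), and in HET against WT 6 were higher and 1 lower (0.49). Jak3, the kinase bound to the gamma chain, was higher in KO at day 4 (2.23 ± 0.09) and Stat5a was too (1.25 ± 0.07), while Jak1 was lower (-0.19 ± 0.07). At day 14 Stat3 (0.91 ± 0.07) and Stat2 (0.76 ± 0.06) were higher in KO, and Stat2 (1.66 ± 0.06) in HET, while Jak2 was lower in KO (-0.45 ± 0.07) and HET (-0.68 ± 0.07). Values in parentheses here and in the next paragraph are log2 changes ± SE or list medians, and the medians over all genes were 0.03, -0.02 and -0.02. Of 8 SOCS inhibitors, 3 were higher and 5 lower in KO at day 4 (-0.38), 4 and 2 at day 14 (0.16), and 6 and 2 in HET (0.3). Socs2 was higher in KO at day 4 (0.73 ± 0.08) and day 14 (1.53 ± 0.09), and Socs1 was lower at day 14 in KO (-1.06 ± 0.15) and HET (-0.46 ± 0.15).

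Of 14 NF-kB factors and inhibitors, 1 was higher and 10 lower in KO at day 4 (-0.37), 3 and 8 at day 14 (-0.35), and 4 and 6 in HET (-0.1). Nfkbib (-1.39 ± 0.08) and Rela (-0.74 ± 0.05) were lower at day 4, Nfkbie (-1.48 ± 0.09) and Nfkb2 (-0.68 ± 0.04) at day 14, and Bcl3 was the gene higher at day 4 (0.54 ± 0.08). A list of 15 signalling genes of IL-1 family and IL-17 receptors held Myd88, the Irak genes and others such as Traf5, Tab2, Map3k7, Tollip and Zc3h12a. Of these, 6 were higher and 6 lower in KO at day 4 (-0.09), 6 and 3 at day 14 (0.1), and 5 and 6 in HET (0.05). Irak1 was lower in KO at both days (-0.97 ± 0.04 and -0.47 ± 0.04). Of 8 tested gp130 family genes not named Il, 2 were higher and 4 lower in KO at day 4 (-0.38), 1 and 4 at day 14 (-0.13), and 1 and 5 in HET (-1.08). Lifr, the LIF receptor, was lower in KO (-1.94 ± 0.13) and higher in HET (1.09 ± 0.12) at day 14. Of 9 tested colony-stimulating factors, receptors and other linked genes, 5 were higher and 2 lower in KO at day 4 (0.38), 1 and 7 at day 14 (-2.52), and 1 and 4 in HET (-0.22). Csf2ra, the GM-CSF receptor chain, had no count in KO at either day, against 2.15, 2.5 and 1.96 CPM in WT and 11.4, 5.26 and 9.74 in HET at day 14, and Csf1 was higher in KO at day 4 (2.58 ± 0.06) and less so at day 14 (0.15 ± 0.06). Of 9 tested proteases and inflammasome genes, 4 were higher and 2 lower in KO at day 4 (0.35), 3 and 3 at day 14 (0), and 7 and 1 in HET (0.6). Casp1, which cleaves IL-1 beta and IL-18 to their active forms, was lower in KO at day 4 (-0.74 ± 0.21) and day 14 (-1.38 ± 0.15). Aim2, a DNA sensor, was higher in KO at both days (4.76 ± 0.41 and 2.38 ± 0.36).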

How the data were processed

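RNA was measured in 15 libraries of mouse embryonic fibroblasts, prepared with an unstranded poly(A) kit per the labels' protocols. The authors deposited raw counts of reads per Ensembl gene and library. TopHat2 2.1.0, HTSeq, DESeq2 and the GRCm38.p4 genome are named per the submitters' processing notes. For the annotation, the strand setting of the counting and the other versions, the entry is: not given in the sources used here. No row named no gene, and the 512 IDs without a symbol held 0.051% of counts.

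Groups came from the sample labels. Counts were scaled by TMM and fitted in edgeR 4.0.16 (R 4.3.3, limma 3.58.1) with 1 model of all 5 groups, after edgeR's filter with a minimum count of 10, which left 15296 genes. Quasi-likelihood p-values were adjusted by Benjamini-Hochberg over all of them, with a threshold of 0.05. Each ± beside a log2 change is a standard error from that fit, bounded below by counting error; each ± beside a mean is the SD of 3 libraries. CPM per kb used the union of exons. Where a group held no count, a fold is a bound with 3 counts over the group; ratios with 1 to 3 counts carry an exact 95% interval. Both cover counting error only. The precision of low genes is set by the library totals of 19.88 M to 47.49 M counts.

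Every tested member with a mean of 1 CPM in some group is given library by library, the others by their group means, and genes of the pathway lists are among the 2 called in each direction with the smallest adjusted p in a comparison; some results are not reported here. The members and lists were chosen with earlier results of these data known. Promoters were matched for 33 of the 42 tested members.

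The labels do not say whether replicate numbers pair the libraries. Over 30 pairs of same-numbered libraries, deviations from the group means correlated between -0.15 and 0.179, with 1 pair over 0.1. This gave no clear sign of pairing, but it cannot exclude a shared origin with a small effect. The alternatives were DESeq2 1.42.0, RLE scaling, other filters on low counts, a fit of only the groups compared, a replicate block and leaving out each library in turn. On simulated data for KO against WT at day 14 (15296 genes), 64% of 50 genes changed 1.5-fold, 86% at 2-fold, 96% at 4-fold and 100% at 8-fold were recovered, and 11 of 15096 unchanged genes were called. The changed genes were drawn from those with at least 30 counts over WT at day 14, so recovery of lower genes was not measured. Far fewer genes were changed than the 63.1% called in the data, so these rates need not hold there.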

Additional observations from a re-analysis of the deposited data

Results flagged for a closer look

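For 31 of the 42 tested members, the KO to WT difference itself differed between days, by the interaction term of the edgeR fit at an adjusted p under 0.05. The values are the log2 change of KO against WT at day 14 minus that at day 4. It was more negative at day 14 for 13 members: Il2rb (-7.84), Il27ra (-5.41), Il19 (-5.23), Il13ra2 (-5.11), Il2ra (-4.11), Il15 (-3.07), Il34 (-2.23), Il7 (-2.22), Il17rc (-1.86), Il1rl1 (-1.47), Il12rb1 (-0.82), Il4ra (-0.61) and Il11ra1 (-0.49). It was more positive at day 14 for 18 members: Il12b (4.22), Il33 (3.51), Il23a (3.45), Il15ra (3.26), Il18rap (2.82), Il11 (2.56), Il20rb (1.85), Il1rap (1.84), Il1a (1.78), Il4i1 (1.76), Il6 (1.27), Il6ra (1.14), Il6st (0.79), Il18bp (0.76), Il10rb (0.66), Il1rn (0.6), Il17ra (0.37) and Il1r1 (0.31). A positive value can stand for a smaller deficit, as for Il11, which was lower in KO at both days. For Il2rb, Il27ra, Il12b and Il23a, 1 group held 1 to 3 counts, so the size of these values depends on counts near 0. Without WT replicate 1 of day 4, Il2rb was -9.37 and Il27ra -6.06, and Il12b was 5.61 without WT replicate 1 of day 14 and 6.58 without KO replicate 3 of day 4. Il23a was 5.09 without KO replicate 2 of day 4, Il19 was -5.97 and Il11 1.64 (edgeR adjusted p = 0.0857) without KO replicate 3 of day 14, and Il2ra was -5.13 without WT replicate 2 of day 4 and -3.5 without KO replicate 3 of day 14. The calls of Il18bp, Il11ra1 and Il1r1 were each lost on leaving out at least 1 library, as was that of Il11. Both differences of each gene use their own WT and KO libraries. Day 4 was not measured in HET, so the same test could not be made there.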

How the results depend on the processing

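No call reversed direction under any alternative, though some changes that did not pass the test turned sign (for example Il12b between days in WT from -1.22 to 0.67, Il17f in KO against WT at day 4 from -0.7 to 1.71, Il17f between days in KO from -0.39 to 2.53 and Il17rd in HET against WT from -0.35 to 0.32). Every count of members called stayed within 1.5 times its value. With a library left out, KO against WT at day 14 gave 7 to 8 members higher and 13 to 15 lower, HET against WT 10 to 13 and 15 to 18, KO against HET 8 to 11 and 13 to 14, KO against WT at day 4 gave 11 and 22, day 14 against day 4 gave 17 to 19 and 15 to 17 in WT and 16 to 17 and 11 to 12 in KO, and the interaction 16 to 18 and 12 to 13. Among the single genes under these settings, 71 calls were lost and 25 gained over all comparisons. The fit of only the groups compared gave 12 members lower in HET than in WT, against 17, and no filter beyond 1 count gave 23 higher at day 14 in WT, against 18. DESeq2 lost no call and gained 3, and RLE scaling lost 2 and gained 2, with median shifts of at most 0.027 on the log2 scale.

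With the replicate block, although the labels give no pairing, KO against WT at day 14 gave 9 members higher and 15 lower, HET against WT 12 and 17, KO against HET 9 and 15, KO against WT at day 4 gave 11 and 22, and the change between days 18 and 16 in WT and 17 and 11 in KO. The block lost the calls of Il3ra in KO against WT at day 14 and of Il1b between days in WT, and gained those of Il18bp in KO against WT and Il20rb in KO against HET. Whether a lost call reflects a smaller difference was not tested. Depth limits members under about 1 CPM, whose calls rest on few counts.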
